A study of Mus musculus with 6 samples.

Results

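The miR-10, miR-99 and miR-100 family was examined in mouse EPCs (endothelial progenitor cells), bone marrow cells cultured in a medium that favours endothelial growth. Its members are defined by their names, and all 10 mature microRNAs (miRNAs) of the family were present among the 1915 mature names of the count table. They are the 5p and 3p arms of 5 hairpin precursors, mir-10a, mir-10b, mir-99a, mir-99b and mir-100. The cells came from wild-type male C57BL/6J mice, obtained at 11 weeks of age and acclimated for 1 week. CAP mice had inhaled concentrated ambient fine particulate matter for 6 h per day on 30 consecutive days, and air mice had inhaled HEPA-filtered air on the same schedule. Small RNA was sequenced from 3 libraries of each group after bone marrow culture, for which the labels give 12 days and the methods 10 days. Each group was housed in 1 cage, so that cage and exposure cannot be told apart. The comparison addressed whether levels of the family differed between cells of CAP-exposed and air-exposed mice.

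A miRNA guides a silencing complex to mRNAs that pair with its seed, bases 2 to 8 from the 5′ end. The hairpin yields a 5p and a 3p arm, of which the more abundant is usually called the guide strand and the other the passenger strand. The family is one of the oldest in animals. Precursors of miR-10 sit inside Hox gene clusters and their guide strands repress Hox mRNAs, and miR-10 is linked in zebrafish and human endothelium to the sprouting of vessels. Those of miR-99 and miR-100 lie in clusters with a let-7 and a miR-125 precursor, and their guide strands are known repressors of Mtor, a kinase that drives growth. In endothelial and smooth muscle cells miR-100 is known to restrain proliferation through that target.

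The guide strands are shown because their seeds split the family into a pair of groups and because they differ by as little as 1 base, which bears on how reads could be assigned. Sequences are those of RefSeq on GRCm38.p6, which matched all 10 members, written 5′ to 3′ with the seed in capitals, and the mouse prefix mmu is left out elsewhere.
mmu-miR-10a-5p: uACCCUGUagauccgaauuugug
mmu-miR-10b-5p: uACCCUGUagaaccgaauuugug
mmu-miR-99a-5p: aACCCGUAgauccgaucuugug
mmu-miR-100-5p: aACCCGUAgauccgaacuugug
mmu-miR-99b-5p: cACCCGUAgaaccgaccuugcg
Both miR-10 guides carry the seed ACCCUGU, and miR-99a-5p, miR-99b-5p and miR-100-5p carry ACCCGUA. No other mature miRNA of the RefSeq table had either seed. Counted from the 5′ end, miR-10b-5p differs from miR-10a-5p by the substitution U12A alone. miR-100-5p differs from miR-99a-5p by U16A alone, and miR-99b-5p from miR-99a-5p by A1C, U11A, U16C and U21C. Counts within each of those near-identical pairs are uncertain in so far as reads could be assigned to the wrong one, which was not tested.

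The 3p arms are shown with their seeds in capitals because the ratio between the arms is compared further on.
mmu-miR-10a-3p: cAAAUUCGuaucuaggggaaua
mmu-miR-10b-3p: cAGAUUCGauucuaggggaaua
mmu-miR-99a-3p: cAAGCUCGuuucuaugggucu
mmu-miR-99b-3p: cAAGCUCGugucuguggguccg
mmu-miR-100-3p: aCAAGCUUgugucuauagguau
Within the 3p arms only miR-99a-3p and miR-99b-3p share a seed. The closest pair of them, miR-10a-3p and miR-10b-3p, differs by 3 substitutions (A3G, U9A and A10U). Each member had 1 row in the table, and none shared identical counts with another name.

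All precursors lie on the plus strand of GRCm38. Mir10a is at chr11:96317165-96317274, 993 bp from Hoxb4, and Mir10b at chr2:74726070-74726137 in introns annotated to Hoxd3 and Hoxd4. Mir99a is at chr16:77598936-77599000 in an intron of the noncoding gene Mir99ahg. The let-7c-1 precursor follows 656 bp away and that of miR-125b-2 at 47272 bp. Mir99b is at chr17:17830188-17830257 in an intron of Spaca6, with let-7e at 94 bp and miR-125a at 554 bp. Mir100 is at chr9:41531425-41531504 in introns of the genes 3110039I08Rik and Gm49317 and across an exon of the antisense gene Gm48742, with let-7a-2 at 5211 bp and miR-125b-1 at 50421 bp.

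With 1 row per mature name, the libraries held 13831209 to 18107578 counts in the CAP group and 15547921 to 16529487 in the air group. Levels are given as CPM, the usual unit of counts relative to the library total, here after TMM scaling of that total. Libraries of this kind ligate different miRNAs with different efficiency, so that levels of different members set side by side carry that bias. Haematopoietic miRNAs were abundant, the list of 5 (miR-223-3p, both arms of miR-142a, miR-150-5p and miR-155-5p) summing to 60734 to 76285 CPM in CAP and 57865 to 71457 CPM in air. Endothelial miR-126a arms summed to 947 to 3675 CPM in CAP and 1953 to 5120 CPM in air. Erythroid, muscle and epithelial lists summed to at most 91.7, 345 and 122 CPM in CAP and at most 47.2, 495 and 76.2 CPM in air. CAP replicate 1 stood apart, with 24731 CPM of the hepatocyte miRNA miR-122-5p beside 277 and 122 CPM in CAP replicates 2 and 3 and 75.0 to 146 CPM in air. The log2 fold changes of the members and the main ratios are therefore also given without it.

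No member passed the Benjamini–Hochberg adjusted p of 0.05 in edgeR's quasi-likelihood test over 677 miRNAs, and neither did any other miRNA (0%). The guide strands miR-99a-5p and miR-100-5p had the lowest CAP levels relative to air, at 0.674 and 0.776 times the air mean. The passenger strands miR-99b-3p and miR-100-3p had the highest, at 1.41 and 1.44 times. These 4 members had an unadjusted p under 0.05. That is 4 of 10 beside 21% of all miRNAs tested, with 2 lower beside 9.45% and 2 higher beside 11.5%. Upper-quartile scaling, which moved the calls over all miRNAs to 130 higher and 25 lower against 78 and 64, gave 3 higher and 1 lower member. They were also the members whose libraries did not overlap between the groups, 4 of 10 beside 29%, with 2 lower beside 14.3% and 2 higher beside 14.6%. The median log2 fold change was 0.06 over the members and 0.00 over all miRNAs tested. DESeq2 passed 0 members, where it passed 4.25% of 706 miRNAs. The whole family summed to 6938, 7613 and 7981 CPM in CAP and 7489, 7086 and 8020 CPM in air, with means of 7511 ± 529 CPM in CAP and 7532 ± 469 CPM in air (SD, n = 3 each). It took 0.696 to 0.780% of all counts in CAP libraries and 0.711 to 0.784% in air libraries.

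**Figure D1:**
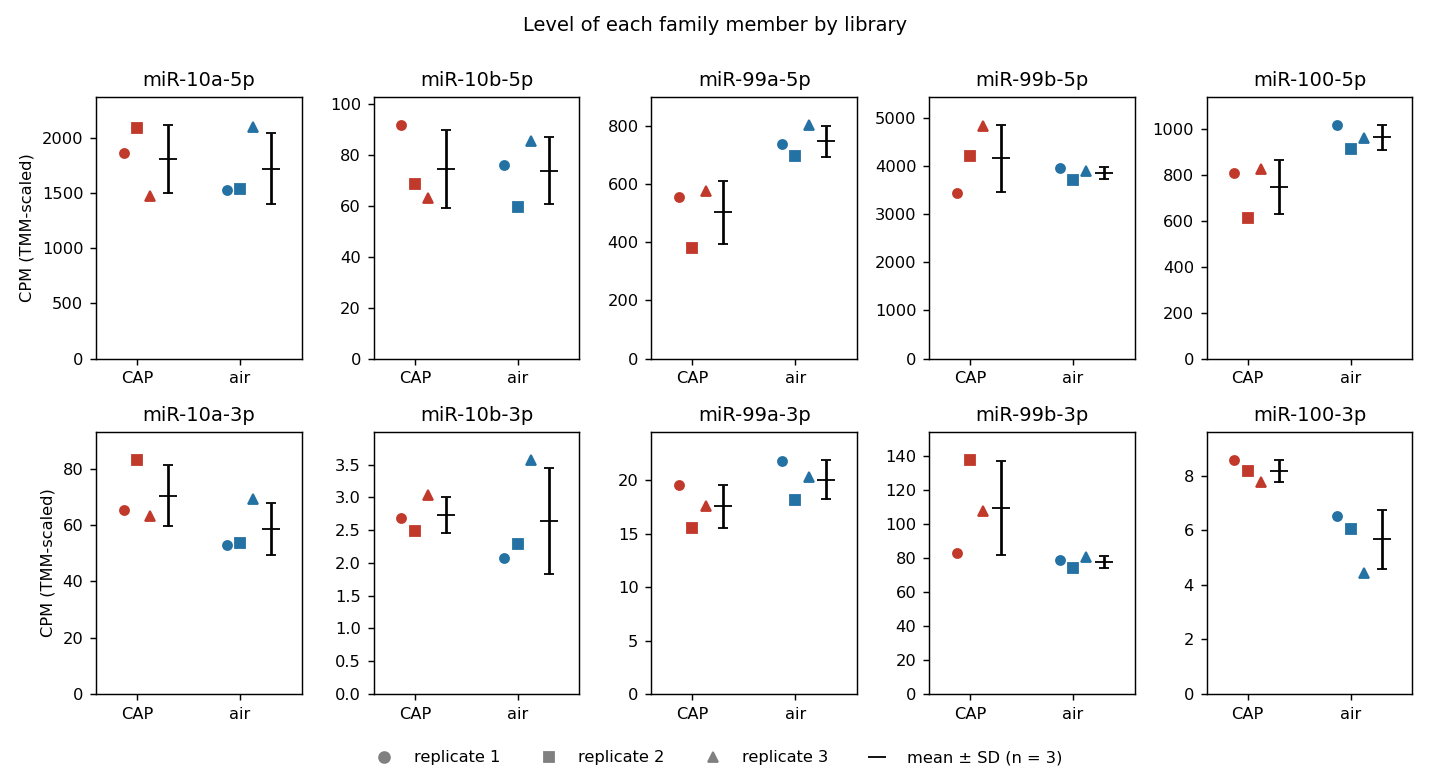
TMM-scaled CPM (linear y axes from 0, a different range in each panel) of the 10 members in the 3 CAP and 3 air libraries; symbols give the replicate and black bars the mean and SD (n = 3). The groups are apart for miR-99a-5p, miR-100-5p, miR-99b-3p and miR-100-3p and overlap in the other 6 panels.

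miR-99a-5p, encoded with let-7c on chromosome 16, was at 555, 379.7 and 578 CPM in CAP replicates 1, 2 and 3, against 741, 699 and 806 CPM in air replicates 1, 2 and 3. Every CAP library lay below every air library, CAP replicate 2 being the lowest of all. The means were 504 ± 108 CPM in CAP and 749 ± 53.8 CPM in air (SD, n = 3 each). The log2 fold change was −0.57 ± 0.17 (SE), with a 95% interval from −0.97 to −0.17 and an edgeR adjusted p = 0.157. Leaving out CAP replicate 1 gave −0.69, leaving out CAP replicate 2 gave −0.42, and upper-quartile scaling gave −0.42. In each of 16 alternative fits the unadjusted p was under 0.05, while the adjusted p ran from 0.0635 (DESeq2) to 0.358 (edgeR without air replicate 3). In a bulk library, fewer cells of a type and less of the miRNA per cell cannot be told apart.

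miR-100-5p, a repressor of Mtor encoded with let-7a-2 on chromosome 9, was at 810.1, 612 and 826 CPM in CAP against 1021, 915 and 961 CPM in air. Again CAP replicate 2 was lowest and the groups did not overlap. Its means were 749 ± 119 CPM in CAP and 965 ± 53.2 CPM in air (SD, n = 3 each). The log2 fold change was −0.37 ± 0.14 (SE), with an interval from −0.69 to −0.04 and an edgeR adjusted p = 0.186. Without CAP replicate 1 it was −0.47, without CAP replicate 2 it was −0.25, and upper-quartile scaling moved it to −0.22. The unadjusted p was no longer under 0.05 with that scaling, with the rows of a name summed (−0.34), without air replicate 1 (−0.35) or without air replicate 3 (−0.38). Over the alternatives the adjusted p ran from 0.160 to 0.430 (edgeR).

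miR-99b-5p, the most abundant of the family and 42nd in abundance of all miRNAs tested, was at 3441, 4216 and 4842 CPM in CAP against 3958, 3722 and 3895 CPM in air. The CAP libraries lay on both sides of the air libraries, which were close together. The means were 4167 ± 702 CPM in CAP and 3858 ± 123 CPM in air (SD, n = 3 each), and the log2 fold change of 0.11 had an interval from −0.20 to 0.42 (edgeR adjusted p = 0.629). Although it shares its seed with miR-99a-5p and miR-100-5p, only CAP replicate 1 was below the air libraries. Without that library the log2 fold change was 0.18.

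The miR-99 and miR-100 guides together make up the pool with the seed ACCCGUA. That pool summed to 4807, 5208 and 6246 CPM in CAP against 5720, 5335 and 5662 CPM in air, and the groups overlapped. miR-99a-5p made up 11.6, 7.29 and 9.25% of it in CAP and 12.9, 13.1 and 14.2% in air. miR-100-5p made up 16.9, 11.8 and 13.2% in CAP and 17.8, 17.1 and 16.98% in air. The share of miR-99b-5p was 71.6, 81.0 and 77.5% in CAP and 69.2, 69.8 and 68.8% in air. The 3 shares add up to the whole and so are not independent. The groups did not overlap in any of them, and miR-100-5p in CAP replicate 1 came close to the air libraries. Of ratios between any pair of tested miRNAs of at least 10 CPM, 34.3% did not overlap. That figure is for ratios, and none was computed for shares of a summed level. The SD of a share was 2.13 to 4.73 percentage points over CAP libraries and 0.46 to 0.70 over air libraries (n = 3 each).

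**Figure D2:**
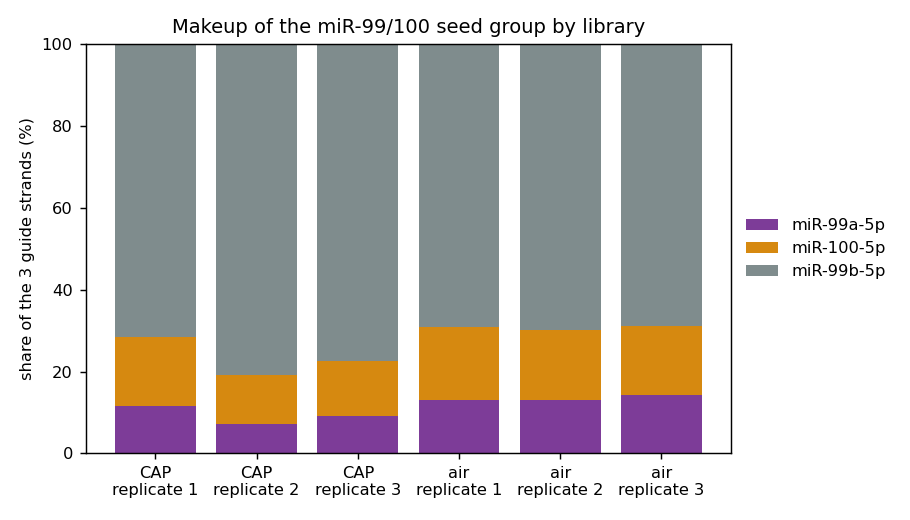
Share (%, y axis) of miR-99a-5p, miR-100-5p and miR-99b-5p in their summed level, as stacked bars for the 3 CAP and 3 air libraries (x axis). miR-99b-5p takes 71.6 to 81.0% in CAP bars and 68.8 to 69.8% in air bars.

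miR-10a-5p, encoded beside Hoxb4, was at 1861, 2089 and 1473 CPM in CAP against 1531, 1537 and 2095 CPM in air. Air replicate 3 was the highest library and CAP replicate 3 the lowest. The means of 1808 ± 312 CPM in CAP and 1721 ± 324 CPM in air (SD, n = 3 each) differed by less than the spread, with a log2 fold change of 0.07 and an interval from −0.35 to 0.49 (edgeR adjusted p = 0.839). Its near-copy miR-10b-5p, from the Hoxd cluster, was at 91.9, 68.6 and 63.0 CPM in CAP against 76.2, 59.5 and 85.5 CPM in air. The log2 fold change was 0.02 with an interval from −0.43 to 0.46 (edgeR adjusted p = 0.967), and its sign turned in 4 of 16 alternative fits, as did that of miR-10a-5p. Counts of miR-10b-5p were 4.94, 3.28 and 4.28% of those of miR-10a-5p in CAP and 4.98, 3.87 and 4.08% in air. Without CAP replicate 1 the log2 fold changes were −0.01 for miR-10a-5p and −0.22 for miR-10b-5p. The intervals of the full comparison reach from 0.786 to 1.40 times the air level for miR-10a-5p and from 0.740 to 1.38 times for miR-10b-5p. Differences anywhere within them remain compatible with these data.

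The other miRNAs of the Hox clusters were set beside them from a list of 7 names. Of these, 5 were tested, 1 being higher and 4 lower in CAP with a median log2 fold change of −0.18. Of the 5, 0 passed the adjusted or the unadjusted threshold, beside 0% and 21% of all miRNAs tested. miR-196a-5p, which represses Hoxb8, was at 3635, 2839 and 4145 CPM in CAP against 4081, 3539 and 4379 CPM in air. miR-196b-5p, of the Hoxa cluster, averaged 983 ± 284 CPM in CAP and 1268 ± 143 CPM in air (SD, n = 3 each). Both had their lowest value in CAP replicate 2, and their groups overlapped. miR-196a-2-3p was the only one of the 5 without overlap, beside 29% of all miRNAs tested. It was at 20.1 to 27.4 CPM in CAP and 30.1 to 30.5 CPM in air. The scarce miR-196a-1-3p and miR-615-5p, with at most 7 counts in a library, were not tested.

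Of the passenger strands, miR-100-3p was at 8.57, 8.20 and 7.77 CPM in CAP against 6.53, 6.05 and 4.43 CPM in air, from 134, 148 and 105 counts in CAP and 113, 98 and 67 in air. All CAP libraries were above all air libraries, in the opposite direction to the guide of the same hairpin. The means were 8.18 ± 0.40 CPM in CAP and 5.67 ± 1.099 CPM in air (SD, n = 3 each). The log2 fold change was 0.53 ± 0.19 (SE), with an edgeR adjusted p = 0.183. The unadjusted p was no longer under 0.05 without CAP replicate 1 (0.44), air replicate 2 (0.55) or air replicate 3 (0.37), or with library totals alone (0.50), the values in parentheses being log2 fold changes. The adjusted p ran from 0.118 to 0.414 over the alternatives (edgeR).

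miR-99b-3p was at 82.7, 138 and 108 CPM in CAP against 78.9, 73.9 and 80.6 CPM in air. CAP replicate 1 was just above the highest air library and CAP replicate 2 well above it. The means were 109 ± 27.5 CPM in CAP and 77.8 ± 3.45 CPM in air (SD, n = 3 each), and the log2 fold change was 0.49 ± 0.18 (SE), with an edgeR adjusted p = 0.184. It was 0.60 without CAP replicate 1. Without CAP replicate 2 it was 0.28, and without any 1 of CAP replicates 2 and 3 and air replicates 1, 2 and 3 the unadjusted p was no longer under 0.05. Those log2 fold changes were 0.48 without CAP replicate 3 and 0.47, 0.43 and 0.50 without air replicates 1, 2 and 3. The adjusted p ran from 0.09998 to 0.410 over the alternatives (edgeR).

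The other passenger strands overlapped between the groups. miR-10a-3p was at 65.3, 83.1 and 63.1 CPM in CAP against 52.8, 53.7 and 69.3 CPM in air, a log2 fold change of 0.27 ± 0.16 (SE, edgeR adjusted p = 0.380). It was 0.26 without CAP replicate 1, 0.12 without CAP replicate 2 and 0.17 and 0.18 without air replicates 1 and 2. The unadjusted p was under 0.05 in 2 of 16 alternatives, upper-quartile scaling (0.42) and leaving out air replicate 3 (0.39). miR-99a-3p was at 19.6, 15.6 and 17.6 CPM in CAP against 21.8, 18.1 and 20.3 CPM in air, a log2 fold change of −0.19 ± 0.15 (SE, edgeR adjusted p = 0.480). It was −0.33 without CAP replicate 1, −0.13 without CAP replicate 2 and −0.04 with upper-quartile scaling. miR-10b-3p, the scarcest member, had 41 to 45 counts in CAP libraries and 36 to 54 in air libraries. There counting error alone gives a coefficient of variation of 15.3%, against 0.396% for miR-99b-5p, and the log2 fold change of 0.05 had an interval from −0.57 to 0.67 and was 0.01 without CAP replicate 1. For each of the 5 guides counting error was well below its own spread between libraries. It was largest for miR-10b-5p, at 2.91% against 17.9% between air libraries and 20.6% between CAP libraries. The smallest spread between air libraries was that of miR-99b-5p, at 3.18%, with 16.8% between CAP libraries.

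**Figure D3:**
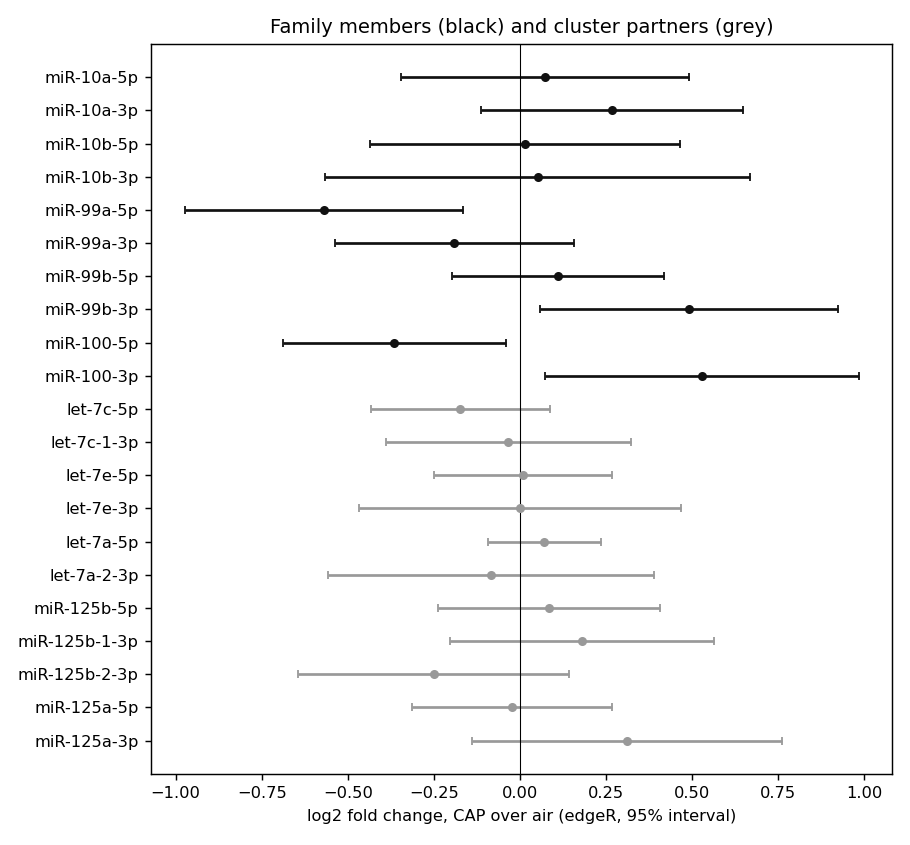
Log2 fold change, CAP over air, with its 95% interval from edgeR's quasi-likelihood fit (x axis), for the 10 family members in black and 11 arms of the cluster partners in grey. Intervals of miR-99a-5p and miR-100-5p lie below 0 and those of miR-99b-3p and miR-100-3p above 0, before adjustment over 677 miRNAs, and all 11 grey intervals cross 0.

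The ratio of the 5p to the 3p arm compares strands of 1 hairpin within a library, so that the scaling of libraries drops out. The hairpin of mir-100, whose arms differed in opposite directions, is shown with that of mir-99a for comparison, each with both arms in capitals.
mir-99a: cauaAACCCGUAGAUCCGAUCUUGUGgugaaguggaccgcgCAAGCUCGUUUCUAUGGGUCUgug
mir-100: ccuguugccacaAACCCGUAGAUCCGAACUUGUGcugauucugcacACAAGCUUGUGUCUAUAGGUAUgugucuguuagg
For mir-100 the 5p arm had 94.5, 74.7 and 106 counts for each count of the 3p arm in CAP, against 156, 151 and 217 in air. The CAP ratio was 0.528 times that in air, a difference in log2 ratio of −0.92 (−1.03 to −0.76 when each library was left out in turn). The groups did not overlap, and the exact two-sided permutation p was 0.1, the smallest that 3 against 3 libraries can give, so that no such test could pass 0.05. Over the 266 precursors with both arms tested, 13 (4.89%) had a larger difference in either direction.

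The same ratio was 28.4, 24.4 and 32.8 for mir-99a in CAP, against 34.0, 38.5 and 39.7 in air. For mir-99b it was 41.6, 30.6 and 44.9 in CAP against 50.2, 50.3 and 48.3 in air. For mir-10a it was 28.5, 25.1 and 23.3 in CAP against 29.0, 28.6 and 30.2 in air, with CAP replicate 1 close to the air libraries. In each of these the CAP libraries lay below all air libraries, with differences in log2 ratio of −0.40, −0.36 and −0.19. The exact permutation p was 0.1 for each, or 0.125 adjusted over the 5 precursors. For mir-10b it was 34.2, 27.5 and 20.8 in CAP against 36.7, 26.1 and 23.9 in air (exact permutation p = 0.8), and the groups overlapped. Without CAP replicate 1 the differences in log2 ratio were −0.95 for mir-100, −0.40 for mir-99a, −0.42 for mir-99b and −0.27 for mir-10a. That of mir-99b was −0.20 without CAP replicate 2, and that of mir-10a was −0.13 without CAP replicate 3. Over each library left out in turn, mir-99a ran from −0.51 to −0.29, mir-99b from −0.47 to −0.20 and mir-10a from −0.27 to −0.13. Hence 4 of 5 precursors had a ratio without overlap, all 4 lower in CAP, beside 42.5% of the 266 precursors without overlap in either direction and 13.2% without overlap and lower.

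**Figure D4:**
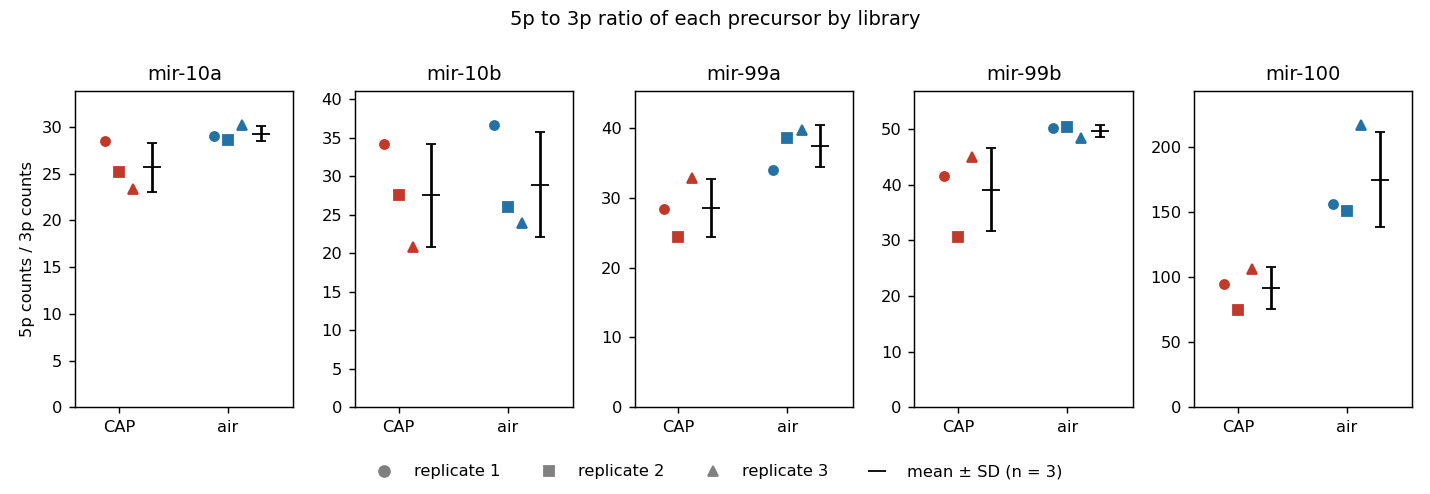
Counts of the 5p arm divided by counts of the 3p arm (linear y axes from 0, a different range in each panel) for the 5 precursors in the 3 CAP and 3 air libraries; symbols give the replicate and black bars the mean and SD (n = 3). The mir-100 ratio lies between 74.7 and 106 in CAP and between 151 and 217 in air, and only mir-10b overlaps.

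Ratios between the guides were compared in the same way, a comparison chosen after the values were seen. Of 10 pairs, 4 did not overlap between the groups, beside the same 34.3% of pairs of at least 10 CPM and 25.6% of pairs with no such minimum. miR-99b-5p had 6.20, 11.1 and 8.38 counts for each count of miR-99a-5p in CAP against 5.34, 5.32 and 4.83 in air. It had 4.25, 6.88 and 5.86 for each count of miR-100-5p in CAP against 3.88, 4.07 and 4.05 in air. The near-identical miR-100-5p and miR-99a-5p stood at 1.46, 1.61 and 1.43 to 1 in CAP against 1.38, 1.31 and 1.19 to 1 in air, so that miR-99a-5p was lower relative to miR-100-5p as well. The last pair without overlap was miR-99a-5p over miR-10b-5p. The exact permutation p was 0.1 for each of the 4, or 0.25 adjusted over the 10 pairs. The differences in log2 ratio of miR-99b-5p over miR-99a-5p and over miR-100-5p were 0.69 and 0.47, and 0.90 and 0.67 without CAP replicate 1. Leaving out CAP replicate 2 instead gave 0.48 and 0.32.

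The miRNAs encoded beside the members were compared in the same fit. Of 11 arms of let-7 and miR-125 precursors in the 3 clusters, 6 were higher and 5 lower in CAP, with a median log2 fold change of 0.00. Of the 11, 0 passed the adjusted or unadjusted threshold of edgeR, beside 0% and 21% of all miRNAs tested. Likewise 0 were without overlap, beside 29%. let-7c-5p, which represses growth and cell cycle genes, was at 20786, 19194 and 24490 CPM in CAP against 22918, 23156 and 26635 CPM in air. miR-125b-5p, made from the mir-99a and the mir-100 clusters and the most abundant of all miRNAs tested, was at 106108, 131805 and 158810 CPM in CAP against 122587, 119484 and 132351 CPM in air. As let-7a-5p, let-7c-5p and miR-125b-5p come from more than 1 precursor each, their levels do not report a single cluster.

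Of 6 ratios of a guide to a partner, 3 did not overlap between the groups, beside 34.3% of pairs of at least 10 CPM. miR-99a-5p was lower in CAP relative to both of its partners without overlap. Its counts were 2.67, 1.98 and 2.36% of those of let-7c-5p in CAP against 3.23, 3.02 and 3.03% in air. Relative to miR-125b-5p they were 0.523, 0.288 and 0.364% in CAP against 0.604, 0.585 and 0.609% in air. The exact permutation p was 0.1 for both. miR-100-5p was at 2.20, 1.73 and 2.17% of let-7a-5p in CAP against 3.10, 2.61 and 2.59% in air, also without overlap, while relative to miR-125b-5p the groups overlapped (exact permutation p = 0.2). miR-99b-5p was at 64.6, 73.0 and 71.1% of let-7e-5p in CAP against 67.2, 65.7 and 62.2% in air, and both this ratio and that to miR-125a-5p overlapped (exact permutation p = 0.3 and 0.2). Adjusted over the 6 ratios, the smallest exact permutation p was 0.2. Without CAP replicate 1 the differences in log2 ratio were −0.52 for miR-99a-5p over let-7c-5p and −0.89 over miR-125b-5p, against −0.41 and −0.66 with it. For miR-100-5p over let-7a-5p it was −0.51, against −0.45 with it. Leaving out CAP replicate 2 instead gave smaller differences of −0.30, −0.46 and −0.34, in the same order.

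Some partner arms belong to 1 precursor only. In the mir-99a cluster, let-7c-1-3p was at 33.1, 27.8 and 39.0 CPM in CAP against 33.2, 32.6 and 36.4 CPM in air, a log2 fold change of −0.03 ± 0.15 (SE). miR-125b-2-3p of the same cluster was at 118, 101 and 156 CPM in CAP against 143, 144 and 158 CPM in air, a log2 fold change of −0.25 ± 0.17 (SE). In the mir-100 cluster, let-7a-2-3p was scarce at 4.14 to 5.10 CPM in CAP and 4.03 to 5.72 CPM in air, with a difference of −0.09 ± 0.20 on the log2 scale (SE). miR-125b-1-3p of that cluster was at 325, 427 and 305 CPM in CAP against 358, 283 and 294 CPM in air, a log2 fold change of 0.18 ± 0.16 (SE). In the mir-99b cluster, let-7e-3p stood at 0.00 ± 0.20 and miR-125a-3p at 0.31 ± 0.19 on the log2 scale (SE). All 6 arms overlapped between the groups, and their adjusted p by edgeR ran from 0.388 (miR-125a-3p) to 0.99987 (let-7e-3p).

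The profile of each leading guide over the 6 libraries was set against 180 miRNAs outside the family of at least 100 CPM, by the root mean square difference of log2 CPM after each was centred on its own mean. Closest to miR-99b-5p were miR-125b-5p at 0.05, let-7e-5p from the same cluster at 0.08 and miR-324-5p at 0.08, beside a median of 0.23 over the candidates. miR-125b-5p is not encoded in the mir-99b cluster, and it followed miR-99a-5p and miR-100-5p, with which it is encoded, less closely at 0.41 and 0.32. The distance from miR-99a-5p to miR-100-5p was 0.13. Of the 180 candidates, 6 were closer than that to miR-99a-5p and 9 to miR-100-5p. Closest to miR-10a-5p were miR-106b-3p, miR-23b-3p and miR-1839-5p at 0.17 each, beside a median of 0.27.

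A list of miRNAs that mark stromal and smooth muscle cells was also compared. All 6 on the list (both arms of miR-199a, miR-214-3p, miR-143-3p, miR-145a-5p and miR-708-5p) were lower in CAP, beside 335 of 677 miRNAs tested. Of the 6, 3 had an unadjusted p under 0.05 in edgeR, beside 9.45% of all miRNAs tested that were lower at that threshold. After adjustment 0 passed, and the median log2 fold change was −0.43. The study had listed miR-214-3p and miR-708-5p among its downregulated miRNAs from the same libraries. As the list was chosen with earlier results of these data known, its counts are a description and no independent support. The log2 fold change of miR-143-3p was only −0.11. The sum of the 6 was 41971, 39090 and 57241 CPM in CAP against 54273, 52860 and 65884 CPM in air, with overlap. CAP replicate 2 was lowest in the sum, as it was for miR-99a-5p and miR-100-5p. The list was not uniform in this, as miR-143-3p and miR-145a-5p were lowest in CAP replicate 1, at 17415 and 1384 CPM. The others were lowest in CAP replicate 2. None of the 6 was at 0. miR-214-3p was at 208 to 354 CPM in CAP and 497 to 669 CPM in air. In a comparison chosen after the values were seen, each guide was divided by the sum of the 6 within a library, with no count added. The differences in log2 ratio were −0.26 for miR-99a-5p and −0.04 for miR-100-5p. They were 0.43 for miR-99b-5p, 0.41 for miR-10a-5p and 0.35 for miR-10b-5p. Only miR-99b-5p was without overlap (exact permutation p = 0.1, against 0.3 to 0.9 for the others). The sum itself averaged 46101 CPM in CAP and 57672 CPM in air, so that dividing by it shifts every guide upward in CAP. How many of all miRNAs tested would be without overlap after this division was not computed. The share of stromal cells was not measured, and their part in the levels of the family was not tested.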

How the data were processed

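Small RNA from cultured EPCs was measured in 3 CAP and 3 air libraries, grouped by their titles. The table deposited by the authors gives raw read counts, 1 row for a mature miRNA with its precursor. Per the study's methods, QIAseq miRNA libraries were trimmed with Trimmomatic, mapped to mm10 with mirDeep2 and bowtie and quantified against miRBase. bcl2fastq 20.0.422 and DESeq2 are named in the submitters' processing notes. Several rows were present for 83 names, none of them a member. Collapsing by molecular identifiers was not stated.

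Where a name had several rows, that with most counts was used. The main test was edgeR 4.0.16 under R 4.3.3 (TMM scaling, default expression filter, quasi-likelihood fit on the group, Benjamini–Hochberg adjustment over 677 miRNAs), and 1238 names were left out. Column totals were 19978586 to 25532775 counts. p-values measure the spread between these libraries only. Ratios used log2 counts with 0.5 added and exact two-sided permutation tests, and log2 CPM a prior count of 2. Named miRNAs were all members, the partners, the Hox list and, for the leading guide of each seed group, the 3 closest profiles. The members and lists were chosen with earlier results of these data known. The script was tested on simulated counts. Alternatives were limma-voom 3.58.1, DESeq2 1.42.0, other scalings, filters and row choices, a replicate block and leaving out each library. Hosts came from GENCODE on GRCm38, and figures from matplotlib 3.10.9.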

Additional observations from a re-analysis of the deposited data

How the results depend on the processing

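No member passed the adjusted threshold of 0.05 in any of the 16 alternatives, the smallest adjusted p being 0.0635 for miR-99a-5p by DESeq2. Over all miRNAs 13 passed with no filter and 30 with DESeq2, against 0 in edgeR's main test. Members at an unadjusted p under 0.05 numbered 2 to 3 of 10 when a library was left out and 3 or 4 otherwise, against 4. Over all miRNAs the share at that threshold ran from 12.88 to 22.02% when a library was left out, against 20.97% in the main fit. It was 9.07% of 1489 miRNAs with DESeq2 and 11.76% of 1496 with no filter. In the other alternatives it ran from 20.09 to 22.90%. Members without overlap numbered 4 to 6 when a library was left out, and 3 to 5 otherwise. With fewer libraries in a group, any miRNA is more easily without overlap, so that the higher counts do not strengthen the result. The share of all miRNAs without overlap was 29% in the main fit and was not computed for the alternatives.

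miR-99a-5p, miR-100-5p, miR-99b-3p and miR-100-3p kept the sign of their log2 fold change in all 16. With upper-quartile scaling the median over all miRNAs was 0.15 on the log2 scale. There the log2 ratio of the summed miR-99/100 seed group was 0.11, against −0.01 to −0.17 when a library was left out. The log2 fold change of miR-10b-5p was −0.0036 with library totals alone and −0.00014 with DESeq2, and ran from −0.22 to 0.12 when a library was left out. That of miR-10a-5p then ran from −0.063 to 0.22, that of miR-10b-3p from −0.12 to 0.32 and that of miR-99b-5p from −0.029 to 0.18. The difference in the mir-10b arm ratio ran from −0.25 to 0.11.

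The titles number both groups 1 to 3, while the sample descriptions number the CAP libraries 3, 4 and 5 and the air libraries 1, 2 and 4. The title numbers, used here, share only a number and did not pair the libraries. Deviations of same-numbered libraries correlated at 0.02, −0.02 and 0.14, and not every air library correlated best with its own number. With a replicate block 4 members had an unadjusted p under 0.05 and 0 passed.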
